A study of Mus musculus with 4 samples.

Results

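The 10 genes described here are regulators of the primitive streak and of the mesoderm that leaves it: *T*, *Eomes*, *Tbx6*, *Mixl1*, *Gsc*, *Evx1*, *Lhx1*, *Mesp1*, *Kdr* and *Foxc1*. The members were picked by gene name, and each of the 10 matched 1 of the 19645 features for which the 4 libraries give an expression value. RNA was sequenced from undifferentiated mouse embryonic stem cells (ESCs) as 2 libraries of *Bmal1* wild-type (WT) cells and 2 of *Bmal1* knockout (KO) cells. The KO cells are a single clone, obtained with CRISPR-Cas9 and carrying a frameshift deletion in *Arntl*, the gene of the circadian transcription factor BMAL1. No agent or differentiation signal is named for either group, both were kept in ESC medium with leukaemia inhibitory factor, and the comparison asks how loss of BMAL1 bears on gene expression before differentiation begins. The study calls the libraries of a genotype biological duplicates, but the labels name no separate cultures. The p-values thus measure the spread between these libraries, and genotype and clone cannot be told apart.

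The primitive streak is the site of the gastrulating embryo where epiblast cells turn into mesoderm and definitive endoderm. NODAL, WNT3 and BMP4 signals induce it, and the T-box factors T and EOMES are among the first transcription factors to appear there. Cells leaving the streak then switch on MESP1, TBX6 or KDR as they take up cardiac, paraxial or blood and endothelial fates. Undifferentiated ESCs correspond to an earlier stage, the epiblast before gastrulation, and are known for low levels of these genes.

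Values are FPKM, counts of sequenced fragments divided by transcript length and by the depth of the library. Of the 10 regulators, 7 were above 0 in every library and 3 were listed at 0 in at least 1. A level of 0.1 FPKM was reached in all 4 libraries by 4 regulators, a level of 0.5 in at least 1 library by 3, and a level of 1 in at least 1 library by 2, *Eomes* and *Evx1*. None of the 10 reached 1 FPKM in all libraries. The 10 genes summed to 4.82 and 4.17 FPKM in the WT libraries (replicate 1, then 2, as in all pairs of values) and to 2.51 and 2.94 in the KO libraries. *Eomes* and *Evx1* made up 77.3% and 79.4% of that sum in WT and 39.5% and 37.5% in KO. Without these genes the sum was 1.09 and 0.860 in WT and 1.52 and 1.84 in KO, so both KO sums of the other 8 regulators lay above both WT sums. The genes left out are those lower in both KO libraries, so the values themselves set this split. Of all features, 25.1% had both KO libraries above both WT libraries. *Mesp1* was part of the higher KO sums, with 0.0990 and 0.151 FPKM in WT and 0.465 and 0.396 in KO.

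**Figure D1:**
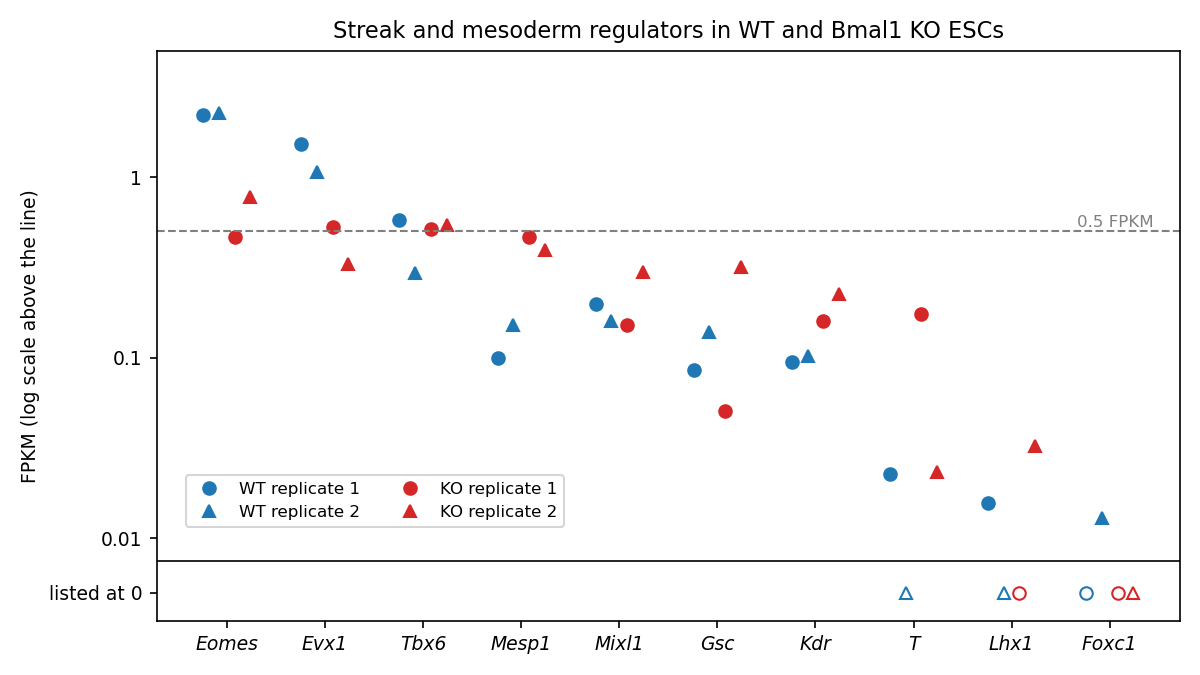
FPKM of each regulator in each library on a logarithmic axis, with values listed at 0 as open symbols under the black line; blue marks WT, red marks KO, circles replicate 1 and triangles replicate 2. *Eomes* and *Evx1* stand above 1 FPKM in both WT libraries and lie lower in both KO libraries, while *T*, *Lhx1* and *Foxc1* hold at least 1 value at 0.

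How little RNA lies behind these levels can be read from the values themselves. In 756 genes with a single annotated transcript of at least 1500 bases, FPKM multiplied by transcript length fell on steps, and 85.9% to 90.4% of the values under 3.5 steps lay within 0.2 of a whole number. Taking 1 step as 1 sequenced fragment, the libraries held an estimated 25000000 and 23900000 fragments in WT and 23200000 and 23900000 in KO. The members' values could then be restated as fragments, closely where a gene has 1 transcript and more roughly otherwise. They came to at most 2 fragments per library for *Lhx1* and at most 1 for *Foxc1*, and to 183 in the fullest case, *Eomes* in WT replicate 1. These numbers are estimates from the deposited FPKM and cover no biological spread.

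**Figure D2:**
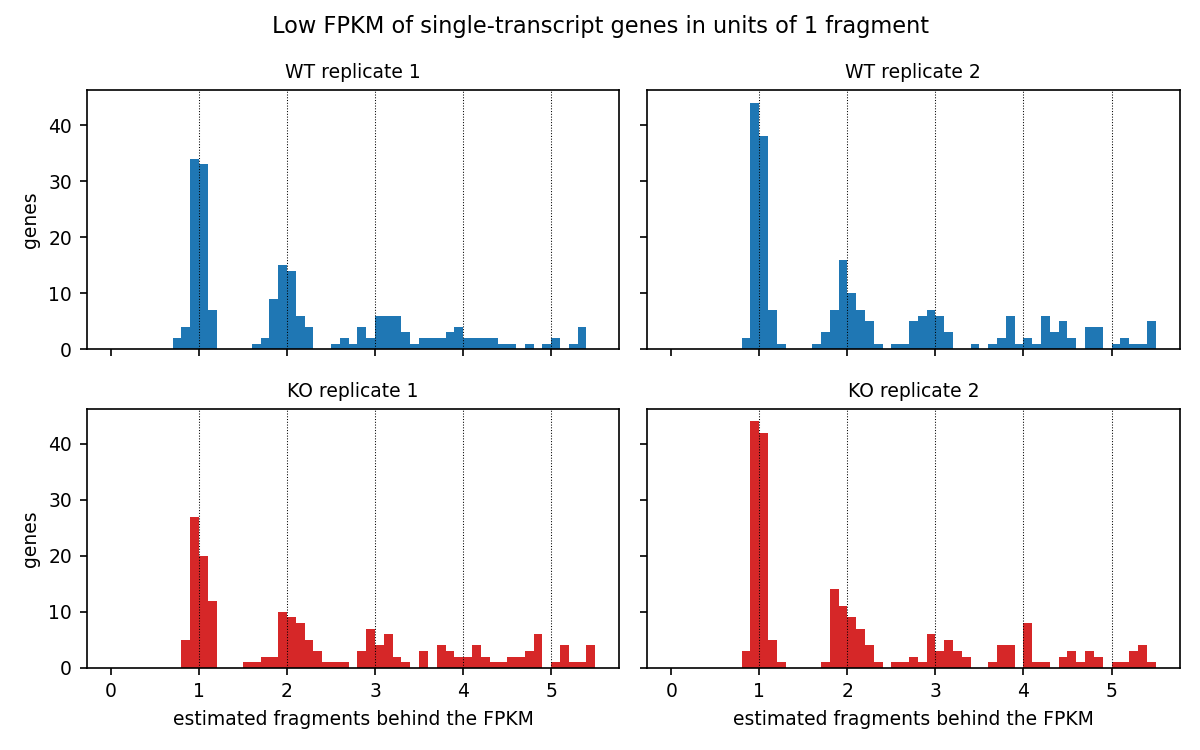
Number of single-transcript genes (vertical axis) by the estimated number of fragments behind their FPKM (horizontal axis, up to 5.5), 1 panel per library; dotted lines mark whole numbers. The values cluster at 1, 2 and 3 fragments in each library and spread out above that.

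Changes between KO and WT were tested in limma on log2(FPKM + 0.1) in the 12990 features whose mean over the libraries was 0.5 FPKM or more. The word called is used for changes over 2-fold whose adjusted p was under 0.05. Of the 10 regulators, 2 passed this minimum, *Eomes* and *Evx1*, and 8 did not and have no test. Both were called lower in KO, where 1.42% of the tested features were called lower and 2.72% higher. Since *Evx1* had a KO mean under 0.5 FPKM, it entered the test through its WT level. Without a test, the KO libraries lay below both WT libraries for 2 of the 10 regulators (*Eomes*, *Evx1*) and above both for 3 (*T*, *Mesp1*, *Kdr*), and the groups overlapped for 5. Over all 19645 features these shares were 26.2% below and 25.1% above. With 2 libraries against 2, an exact permutation test of a single value cannot give a two-sided p under 0.333, so none was used.

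Among the T-box factors, *Eomes* was the best measured. The gene encodes Eomesodermin, needed for the definitive endoderm and for cells to leave the streak, and the files place it at 118478189 to 118486731 of chromosome 9 (GRCm38, plus strand). Its FPKM was 2.21 and 2.25 in WT and 0.463 and 0.775 in KO, which corresponds to about 183, 178, 36 and 61 fragments. The groups did not overlap, and the higher KO library was well under the lower WT library. The WT mean of 2.23 ± 0.0284 FPKM compared with a KO mean of 0.619 ± 0.220 (SD, n = 2 each), a log2 fold change of -1.73 (standard error 0.27, 95% interval -2.39 to -1.08, adjusted p = 0.0154 in the limma fit, adjusted after Benjamini and Hochberg). In WT, *Eomes* ranked above 49.4% and 49.6% of all features, near the middle of the list, and in KO above 32.8% and 38.6%. The call held in all 13 alternative settings run. In the 9 of these with all libraries, the limma adjusted p ran from 0.0102 to 0.0450. Those 9 settings included quantile normalization and median-of-ratios scaling. Leaving out 1 library gave log2 fold changes from -2.05 to -1.41. Features without a gene symbol took 26.8% and 37.3% of the summed FPKM in WT and 19.0% and 18.1% in KO. An antisense gene, *Gm33460*, overlaps the annotated 3′ end of *Eomes* by 574 bases, and reads of the overlap cannot be assigned without strand information, which the sources used here do not give.

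The study's primers for *Eomes*, *T* and *Mixl1* are shown because they place the parts of these transcripts that its RT-qPCR reads, against the whole-gene values given here. The study used RT-qPCR of *Eomes* in WT and KO ESCs to check its own RNA-seq, in which *Eomes* was down-regulated. Its RT-qPCR of *T* and *Mixl1* belongs to differentiation assays, so it is not set against the ESC values here. The *Eomes* forward primer crosses from exon 4 into exon 5 of Eomes-201, between 118482135 and 118482239 of chromosome 9, and the reverse primer lies in exon 6 from 118484337 to 118484356. The pair spans 158 bases of Eomes-201 and 101 bases of the shorter Eomes-202. The *T* primers lie in exons 1 and 2 of T-201, 8434691 to 8434713 and 8435240 to 8435261 of chromosome 17, and span 117 bases. The *Mixl1* forward primer lies in exon 1 of Mixl1-201, 180696782 to 180696801 of chromosome 1, the reverse primer crosses from exon 1 into exon 2, and the pair spans 200 bases. None of these amplicons reaches an overlapping antisense gene.
*Eomes* forward: ccaaaacacggatatcaccc
*Eomes* reverse: gacctccagggacaatctga
*T* forward: gcttcaaggagctaactaacgag
*T* reverse: ccagcaagaaagagtacatggc
*Mixl1* forward: atccgcccggaccctccaaa
*Mixl1* reverse: tcggttctggaaccacacctgga

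*T*, or Brachyury, is the classical marker of the streak and later of the notochord. It occupies 8434423 to 8442496 of chromosome 17, plus strand. It was listed at 0.0227 and 0 FPKM in WT and at 0.174 and 0.0233 in KO. These values stand for about 1, 0, 7 and 1 fragments. KO replicate 1 alone held more than 1 fragment, and KO replicate 2 exceeded WT replicate 1 through the scaling of the same single fragment, so 1 fragment in KO replicate 2 faces 1 fragment in WT replicate 1. *Tbx6*, which directs cells to the paraxial mesoderm, lies on the plus strand of chromosome 7 from 126781483 to 126785548 and showed 0.578 and 0.295 FPKM in WT and 0.513 and 0.545 in KO. Its mean of 0.483 was just under the minimum for the test. Both KO values lay between the WT values, and the WT replicates differed more than the groups.

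The homeobox factors included the other called regulator. *Evx1*, a marker of the posterior streak, is given from 52308389 to 52318378 on chromosome 6, although the annotated gene runs on the plus strand from 52313498 to 52318378. Its FPKM was 1.52 and 1.07 in WT and 0.528 and 0.330 in KO, about 100, 67, 32 and 21 fragments. Both KO libraries lay below both WT libraries, and the WT replicates were further apart than those of *Eomes*. The mean fell from 1.29 ± 0.322 FPKM to 0.429 ± 0.140 (SD, n = 2 each), a log2 fold change of -1.40 (standard error 0.32, 95% interval -2.18 to -0.62, adjusted p = 0.0429 from limma). The call held in 7 of the 12 alternative settings that tested the gene. It was lost without WT replicate 1 (-1.17, limma adjusted p = 0.0575) and without KO replicate 2 (-1.13, limma adjusted p = 0.0732), and the log2 fold change was negative in all 12.

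The span listed for *Evx1* also covers *Evx1os*, an antisense RNA gene on the minus strand from 52308389 to 52314832 that overlaps *Evx1* by 1335 bases. The files list it with the same span under its older symbol 5730457N03Rik, at 0.218 and 0.202 FPKM in WT and 0.0170 and 0.0626 in KO. It was too low for the test, and both its KO values lay below its WT values. Without strand information the reads of *Evx1* and *Evx1os* cannot be told apart where they overlap, so the values of both genes are uncertain.

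*Mixl1*, a homeobox gene of the streak and its endoderm descendants on the minus strand of chromosome 1 from 180693048 to 180697034, gave 0.198 and 0.160 FPKM in WT and 0.152 and 0.299 in KO. These were about 10, 8, 7 and 15 fragments, and the groups overlapped. *Gsc*, or Goosecoid, marks the anterior streak and lies on the minus strand of chromosome 12 from 104471209 to 104473236. It gave 0.0858 and 0.139 FPKM in WT and 0.0506 and 0.317 in KO, which stand for about 2, 3, 1 and 7 fragments. The KO libraries held both the lowest and the highest value of *Gsc*. *Lhx1*, a LIM homeobox gene of the anterior streak and its midline descendants on the minus strand of chromosome 11 from 84519379 to 84525534, was listed at 0.0157 and 0 FPKM in WT and at 0 and 0.0322 in KO, 1 library of each group at 0.

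*Mesp1*, a basic helix-loop-helix factor of the earliest cardiac progenitors, stood higher in both KO libraries. It lies on the minus strand of chromosome 7 from 79792241 to 79793590 and was listed at 0.0990 and 0.151 FPKM in WT and 0.465 and 0.396 in KO. The gene has a single transcript, so these stand for about 2 and 3 fragments in WT and 9 and 8 in KO. The groups did not overlap, with means of 0.125 ± 0.0367 and 0.431 ± 0.0491 FPKM (SD, n = 2 each). *Mesp1* was under the minimum of the test. With no minimum its log2 difference was 1.24 (adjusted p = 0.0700 from limma over 19645 features), which misses the threshold. Its neighbour and paralog *Mesp2* was tested and did not pass (1.32 ± 0.134 FPKM in WT, 1.29 ± 0.505 in KO, log2 fold change -0.08, limma adjusted p = 0.885). The FPKM of *Mesp2* was 12.4 and 9.38 times that of *Mesp1* in WT and 3.54 and 2.36 times in KO.

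*Kdr*, the VEGF receptor that marks early blood and endothelial mesoderm, lies on the minus strand of chromosome 5 from 75933270 to 75978428. It gave 0.0951 and 0.102 FPKM in WT and 0.160 and 0.226 in KO, about 12, 13, 19 and 28 fragments over a long transcript. Both KO values lay above both WT values (log2 difference 0.55, adjusted p = 0.252 from limma with no minimum). *Foxc1*, a forkhead gene of paraxial and cardiac mesoderm on the plus strand of chromosome 13 from 31806646 to 31810635, was listed at 0.0130 FPKM in WT replicate 2 and at 0 in the other 3 libraries. That value is a single fragment. With no minimum, 0 of the 8 low regulators reached an adjusted p under 0.05 in limma, and 1 of them, *Mesp1*, had an unadjusted p under 0.05. Features with a mean between 0.1 and 0.5 FPKM differed between replicates of one genotype by a median of 0.39 on the log2 scale, and features above 5 FPKM by 0.12. In the lower range the upper decile of differences began at 1.22 between replicates and at 1.36 between the KO and WT means. The *Mesp1* difference of 1.24 lay under the latter.

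**Figure D3:**
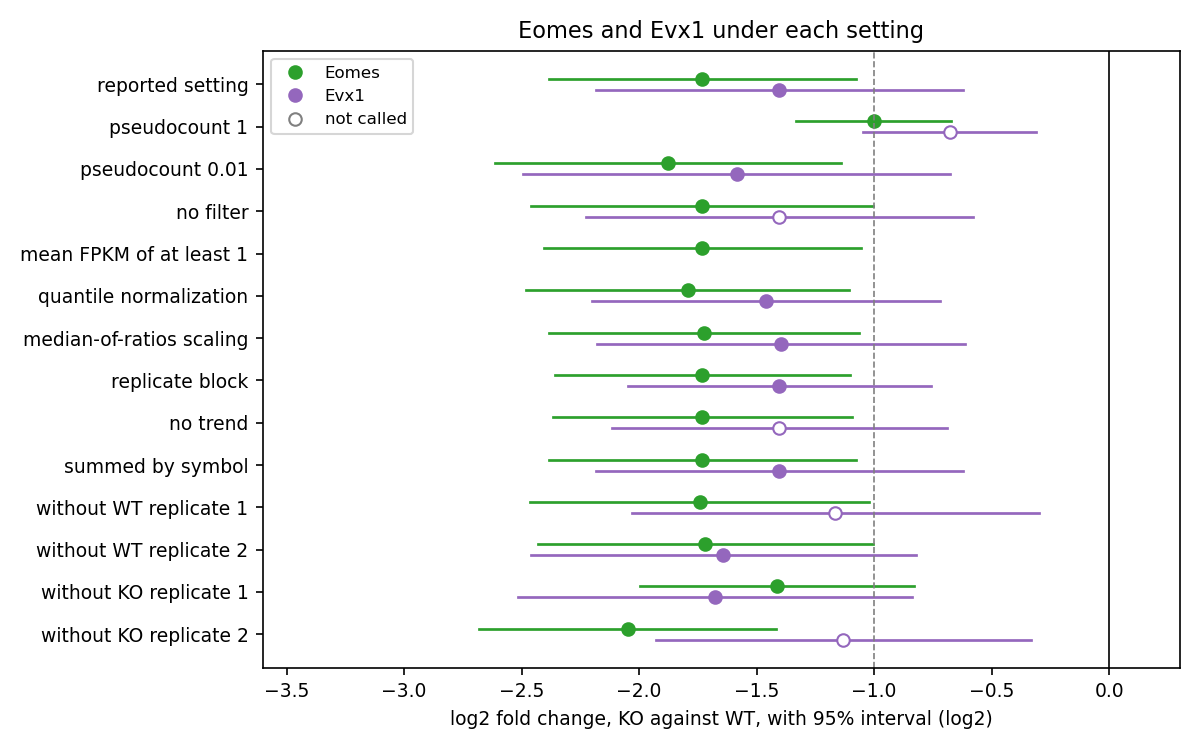
Log2 fold change of KO against WT (points) with its 95% interval (lines) for *Eomes* and *Evx1* in the reported setting and each alternative; filled points were called and open points were not, and the dashed line marks a 2-fold fall. *Eomes* is filled throughout, from -2.05 (without KO replicate 2) to -1.003 (pseudocount of 1), the latter almost on the dashed line. *Evx1* is open in 5 settings and has no value at a minimum of 1 FPKM.

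The promoters of the called *Eomes* and *Evx1*, and of the streak genes *Mesp1* and *T* are shown as the 250 bases before the RefSeq start site (GRCm38.p6, 5′ to 3′ on the strand of the gene). RefSeq promoters were matched for 9 of the 10 regulators. BMAL1 with CLOCK binds the canonical E-box CACGTG, WNT signals act through TCF and LEF factors at TCAAAG, and T-box factors bind AGGTGT, so these 3 words were searched on both strands and are in capitals below. *Eomes*, chr9:118477939-118478188, held none of them. *Evx1*, chr6:52313248-52313497, held 1 AGGTGT (printed as ACACCT) and lies inside *Evx1os*. *Mesp1*, chr7:79793591-79793840, held 2 TCAAAG and 1 AGGTGT, and *T*, chr17:8434173-8434422, held 1 of each.
*Eomes*: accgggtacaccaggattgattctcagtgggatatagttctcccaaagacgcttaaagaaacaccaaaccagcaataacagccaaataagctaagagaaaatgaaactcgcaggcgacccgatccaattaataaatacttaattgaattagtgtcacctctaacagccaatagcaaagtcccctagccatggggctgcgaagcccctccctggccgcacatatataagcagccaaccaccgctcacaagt
*Evx1*: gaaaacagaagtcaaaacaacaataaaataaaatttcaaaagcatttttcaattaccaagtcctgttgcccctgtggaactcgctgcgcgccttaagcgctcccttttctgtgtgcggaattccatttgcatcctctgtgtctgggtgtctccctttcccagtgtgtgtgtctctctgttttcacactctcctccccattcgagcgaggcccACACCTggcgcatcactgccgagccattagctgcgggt
*Mesp1*: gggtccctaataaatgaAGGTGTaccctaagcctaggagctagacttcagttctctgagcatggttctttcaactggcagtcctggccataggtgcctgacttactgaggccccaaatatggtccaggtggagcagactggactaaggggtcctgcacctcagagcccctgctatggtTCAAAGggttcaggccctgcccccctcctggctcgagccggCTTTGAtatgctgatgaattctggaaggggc
*T*: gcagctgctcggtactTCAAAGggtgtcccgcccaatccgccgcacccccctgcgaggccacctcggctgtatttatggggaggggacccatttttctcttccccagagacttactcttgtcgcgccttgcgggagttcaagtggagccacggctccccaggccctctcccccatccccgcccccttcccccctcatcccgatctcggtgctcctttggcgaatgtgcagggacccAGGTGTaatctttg
The E-box CACGTG was in 0 of the 9 matched windows, and in 6.02% of 32851 RefSeq promoter windows of the same length. TCAAAG was in 13.8% and AGGTGT in 11.8% of them. The matched windows not printed, those of *Kdr*, *Tbx6*, *Lhx1*, *Gsc* and *Foxc1*, held none of the 3 words. The printed windows thus carry every match among the 9, and their share with a match overstates that of the 9. A match is a match of letters and not a measured binding site, and the windows leave out enhancers and everything beyond 250 bases.

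The genes on either side of the called members were read to see whether their regions moved too. *Azi2* and *Golga4*, 328 and 19.5 kb from *Eomes*, did not pass the test (log2 fold changes -0.08 and -0.07, limma adjusted p = 0.646 and 0.690). *Hibadh*, 228 kb beyond *Evx1*, did not pass either (-0.09, limma adjusted p = 0.498). On the other side of *Evx1*, 146 kb away at the *Hoxa* cluster, the noncoding *Hotairm1* stood at 9.34 and 6.80 FPKM in WT and 2.57 and 5.86 in KO (-1.02, limma adjusted p = 0.142). Both its KO values were below its WT values, but the spread was too wide for the test. *Itga9*, an integrin gene next after *Golga4* and chosen after its values were seen, fell from 8.74 ± 0.606 FPKM to 4.18 ± 0.204 (SD, n = 2 each; -1.05, limma adjusted p = 0.00628). Second neighbours on the remaining sides are not given, so *Itga9* does not answer whether the regions moved.

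The surrounding pathway was read from 94 further genes, of which 88 were listed and 55 tested. Of these 55, 2 were called higher and 0 lower (limma), against the 2.72% and 1.42% of all tested features given above. At an adjusted p under 0.05 without the 2-fold limit, 13 were higher and 4 lower, where 6.85% of all tested features were higher and 5.60% lower. The median log2 fold change of the 55 was 0.10, and that of all tested features -0.02. The 2 called regulators were thus further down than any tested gene of the pathway, of which *Otx2* was lowest.

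**Figure D4:**
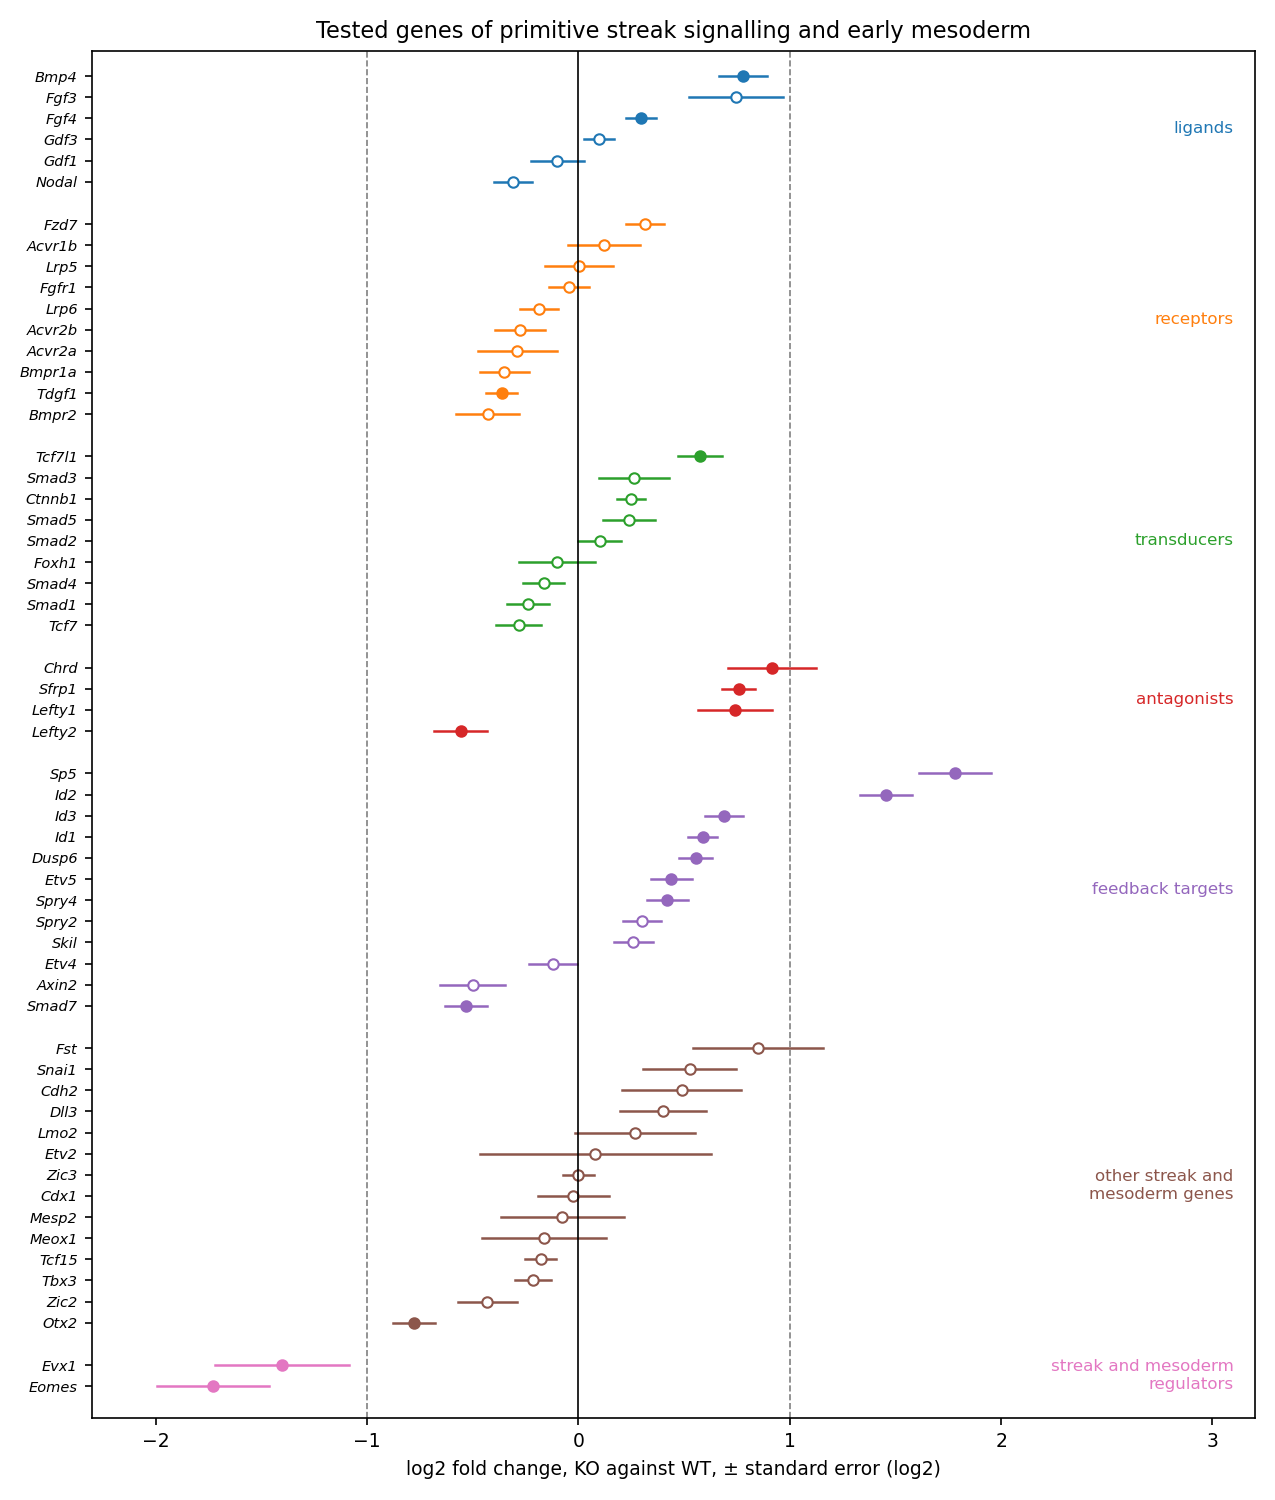
Log2 fold change of KO against WT (points) with its standard error (lines) for the 55 tested pathway genes and the 2 tested regulators, grouped by role; filled points have an adjusted p under 0.05, and dashed lines mark a 2-fold change. *Eomes* and *Evx1* lie left of the dashed line at -1, and *Sp5* and *Id2* lie right of the line at 1.

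Of 11 ligands, 6 were tested and 2 rose. *Bmp4*, which starts the signal from the extraembryonic ectoderm, rose from 24.2 ± 3.25 to 41.4 ± 2.56 FPKM (SD, n = 2 each; log2 fold change 0.78, limma adjusted p = 0.0136), with a span shared with *Gm15217*. *Fgf4* rose by 0.30 on the log2 scale (limma adjusted p = 0.0493). *Nodal*, an inducer of *Eomes*, was at 29.2 and 26.1 FPKM in WT and 22.7 and 21.9 in KO and did not pass (-0.31, limma adjusted p = 0.0813). The streak ligands *Wnt3* and *Fgf8* were at or under 0.0425 and 0.156 FPKM in every library and were not tested. Of 11 receptors and co-receptors, 10 were tested and 1 fell, the NODAL co-receptor *Tdgf1* (439 ± 18.4 to 341 ± 1.58 FPKM, -0.36, limma adjusted p = 0.0322).

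Of 10 transducers, 9 were tested and 1 rose, the WNT-pathway repressor *Tcf7l1* (0.57, limma adjusted p = 0.0237), whose span is shared with *Gm15401*. *Foxh1*, the SMAD partner through which NODAL acts, did not pass (-0.10, limma adjusted p = 0.746) and has the same span as *Kifc2*. Of 7 antagonists, 6 were listed and 4 tested, and all 4 passed an adjusted p under 0.05. *Lefty1*, *Chrd* and *Sfrp1*, which block NODAL, BMP and WNT in turn, rose (0.74, 0.92 and 0.76, limma adjusted p = 0.0486, 0.0430 and 0.00576). *Lefty2*, the other NODAL inhibitor, fell (-0.56, limma adjusted p = 0.0430), so the 2 *Lefty* genes, both NODAL targets, went opposite ways. The span of *Chrd* is shared with *Thpo*, and *Cer1* was not among the listed features.

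Of 15 feedback and direct targets, 12 were tested, 7 rose and 1 fell. *Sp5*, a WNT target, was called at 1.31 and 1.03 FPKM in WT and 4.16 and 4.33 in KO (1.78, limma adjusted p = 0.00522). *Axin2*, also a WNT target, did not pass (3.70 ± 0.275 to 2.60 ± 0.350 FPKM, -0.50, limma adjusted p = 0.0938). The BMP targets *Id1*, *Id2* and *Id3* rose (0.59, 1.45 and 0.69, limma adjusted p = 0.00746, 0.00410 and 0.00994), and *Id2* was called. *Smad7*, an inhibitor induced by BMP and NODAL signals, fell (-0.53, limma adjusted p = 0.0269). The FGF targets *Dusp6*, *Etv5* and *Spry4* rose by 0.55, 0.44 and 0.42 on the log2 scale (limma adjusted p = 0.0116, 0.0409 and 0.0436). The FGF targets *Spry2* and *Etv4*, named after their values were seen, did not pass (0.30 and -0.12, limma adjusted p = 0.0871 and 0.525).

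Of 40 other streak and mesoderm genes, 35 were listed and 14 tested, and 1 passed. *Otx2*, a homeobox factor of the anterior epiblast, fell from 10.4 ± 0.668 to 6.04 ± 0.0344 FPKM (-0.78, limma adjusted p = 0.00990). *Snai1*, the repressor of E-cadherin in cells leaving the streak, did not pass (1.07 ± 0.0938 to 1.60 ± 0.321 FPKM, 0.53, limma adjusted p = 0.177). *Tbx3*, a T-box gene also expressed in ESCs, was at 33.2 ± 2.18 and 28.6 ± 0.633 FPKM (-0.22, limma adjusted p = 0.157) and shares its span with other features. The definitive endoderm genes *Foxa2* and *Sox17* and the mesoderm receptor *Pdgfra* were not tested. Their highest values were 0.206, 0.0798 and 0.0974 FPKM.

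The cell identity of the libraries was read from marker lists. All 12 pluripotent ESC markers were tested and none was called (limma), with 4 past an adjusted p under 0.05. *Tfcp2l1* and *Fgf4* were higher (0.39 and 0.30, limma adjusted p = 0.0259 and 0.0493), and *Klf4* and *Utf1* were lower (-0.46 and -0.43, limma adjusted p = 0.0177 and 0.0491). Both KO libraries lay below both WT libraries for 6 of the 12 and above for 3, where 26.2% and 25.1% of all features did so. *Nanog*, *Sox2* and *Zfp42*, among the 6 and named after their values were seen, did not pass (-0.18, -0.26 and -0.21, limma adjusted p = 0.143, 0.0754 and 0.139). The 12 markers summed to 6847 and 6636 FPKM in WT and 6604 and 6172 in KO. *Arntl* RNA, which a frameshift need not change, was 6.17 ± 0.171 and 5.93 ± 0.0152 FPKM (-0.06, limma adjusted p = 0.750), so it does not check the genotype. *Eomes* is also a trophoblast gene. Of 10 trophoblast markers, 8 were listed and 5 tested, *Ascl2* and *Tfap2c* rose (limma adjusted p = 0.0187 for both) and *Ascl2* was called. That call was lost with a pseudocount of 1 (log2 fold change 0.84) and without KO replicate 2 (limma adjusted p = 0.0634). The trophoblast list summed to 36.5 and 31.5 FPKM in WT and 33.5 and 34.2 in KO. The extraembryonic endoderm list summed to 84.1 and 80.7 in WT and 67.2 and 65.8 in KO, with 10 of 11 listed, 4 tested, 2 lower (*Lamb1*, *Sparc*) and *Ttr* not listed, *Afp* at 0 in 3 libraries. Of these 10 genes, 3 were below WT in both KO libraries and 4 above, where 26.2% of all features were below and 25.1% above. With 10 genes this split is not read as a result about the list. The 4 were *Col4a1*, which did not pass (limma adjusted p = 0.167), and the untested *Sox7*, *Dab2* and *Hnf4a*, named after their values were seen. The endothelial and blood list summed to 21.0 and 18.8 in WT and 20.8 and 20.2 in KO, with 9 of 11 listed, 5 tested, *Tek* higher and *Flt4* called higher, and *Cdh5* at 0 in both WT libraries. Most of that sum was *Pecam1* (16.2 and 15.7 FPKM in WT, 15.8 and 15.7 in KO). Likewise *Sparc* made up most of the extraembryonic endoderm sum, and *Dppa5a* with *Pou5f1* most of the ESC marker sum. The sums thus mainly follow these genes, named for their share, and say little about the rest of each list. The *Flt4* call was lost in 7 of 12 alternative settings, with adjusted p up to 0.155, and *Gata1*, named after its values were seen, did not pass (-1.05, limma adjusted p = 0.0792). Of 9 fibroblast markers, 6 were listed and 1 tested, and they summed to between 1.80 and 3.01 FPKM. The part of any cell type other than ESCs in the values of *Eomes* and *Evx1* was not tested, and fewer expressing cells cannot be told apart from less RNA per cell.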

How the data were processed

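Total RNA of 2 WT and 2 *Bmal1* KO ESC libraries was extracted with TRIzol, depleted of ribosomal RNA and sequenced. Per the submitters' processing notes and the study's methods, the authors aligned the reads to GRCm38 with TopHat2 2.1.1 and Bowtie2 2.3.0 and deposited, for each library, the FPKM per feature estimated by Cufflinks 2.2.1 with the known gene annotation. Strand use is not given in the sources used here. Because the files hold FPKM and no counts, KO was compared with WT on log2(FPKM + 0.1) in limma 3.58.1 (R 4.3.3) with a variance trend, over features with a mean of at least 0.5 FPKM, with Benjamini-Hochberg adjustment over 12990 features. Fold changes on this scale understate those of low genes. Python 3.11.15, numpy 2.4.6, pandas 2.3.3 and matplotlib 3.10.9 did the rest.

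The members and gene lists were chosen with earlier results of these data known, so their directions are not independent evidence. All 10 members were named, and of the other lists every gene with an adjusted p under 0.05, a set of streak genes named whatever their result, the nearest tested neighbours of tested members, and *Arntl*. Genes marked in the text as named or chosen after their values were seen, such as *Itga9*, were added to these.

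The value of 1 fragment was estimated after the data were seen, from FPKM × (transcript length − 240 bases) in single-transcript genes. The offset of 240 bases was the one that made the lowest step narrowest. Primer and promoter sequences came from the study's primer list and RefSeq, and were placed on GRCm38. The alternatives were other pseudocounts, filters, scalings and variance models, a replicate block, summing by symbol, and leaving out each library.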

Additional observations from a re-analysis of the deposited data

How the results depend on the processing

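*Eomes* was called lower in KO under all 13 alternatives. With a pseudocount of 1 its log2 fold change was -1.003, only just past 2-fold. *Evx1* was lower in the 12 that tested it but lost its call with a pseudocount of 1 (log2 fold change -0.68, limma adjusted p = 0.0396, under 2-fold), with no filter (-1.40, limma adjusted p = 0.0835) and with no variance trend (-1.40, limma adjusted p = 0.0532), and had no test at a minimum of 1 FPKM. In each of these 4 settings 1 regulator was called, against 2 in the reported setting. Leaving out each library in turn gave -1.68 to -1.13 for *Evx1*, 1 to 2 called regulators and 257 to 323 features called lower, against 185 with all libraries. A pseudocount of 1 left 146 features called higher and 85 lower, against 353 and 185. The log2 differences of the low regulators also moved with the pseudocount: for *T* from 0.12 at 1 to 2.11 at 0.01, and for *Mesp1* from 0.35 to 1.73. The cause was not tested beyond the construction of these settings.

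With the replicate number as a block, *Eomes* had an adjusted p of 0.0107 and *Evx1* of 0.0183 (limma), and 392 features were called higher and 240 lower; the replicate block changed neither call. Nothing in the labels ties equal numbers together, and across features the replicate differences of WT and KO had a Pearson r of 0.07 and a Spearman rho of 0.39. With 2 pairs these values do not settle whether the numbers pair the libraries. The values of the other 8 regulators rest on 0 to 28 estimated fragments per library, which limits what they can show. Those of *Evx1* in KO rest on about 32 and 21, in or near the same range.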
